A study of Mus musculus with 18 samples.

Results

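The Cyp2 and Cyp3a genes encode the cytochrome P450 enzymes that carry out much of the oxidative metabolism of drugs, steroids, bile acids and unsaturated fatty acids in the liver. The members were all genes whose mouse symbol begins with Cyp2 plus a subfamily letter and number, or with Cyp3a plus a number, and that had a probe well above background on at least 4 of 18 arrays. There were 53 such genes among the 19597 genes measured. All 53 with a named probe passed that filter, and another 30 symbols in the RefSeq gene table, 27 of the 83 symbols in all being pseudogenes, had no named probe. Among those 30 were Cyp2a5, Cyp2c40, Cyp2c69, Cyp2j7, Cyp2j12 and Cyp3a41a. By subfamily there were 3 Cyp2a, 5 Cyp2b, 13 Cyp2c, 10 Cyp2d, 6 Cyp2j and 8 Cyp3a genes, with 1 gene each in Cyp2e, Cyp2f, Cyp2g, Cyp2r, Cyp2s, Cyp2t, Cyp2u and Cyp2w.

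These enzymes sit in the endoplasmic reticulum, bind haem and take electrons from the reductase Por, so their activity depends on haem supply and on redox partners as well as on their own mRNA. The nuclear receptors CAR (Nr1i3) and PXR (Nr1i2) induce Cyp2b10, Cyp3a11 and several Cyp2c genes when drugs or bile acids are present. Growth hormone pulses, acting through STAT5, set the difference between male and female mouse liver, with Cyp2d9 high in males and Cyp2b9, Cyp2b13, Cyp2a4, Cyp3a41 and Cyp3a44 high in females. Inflammation lowers many of these mRNAs.

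Livers came from male C57BL/6 mice that were put on a low fat diet (LFD, 10% fat) or a high fat diet (HFD, 60% fat) at 6 weeks of age. After 10 weeks on diet the treated mice received 5 rounds of methotrexate at 50 mg/kg by intraperitoneal injection (MTX50) while the diet went on, and the liver was taken 1 week after the fifth. Methotrexate is an antifolate chemotherapy drug. There were 4 untreated mice on each diet (LFD and HFD) and 5 treated mice on each (LFD MTX50 and HFD MTX50), 1 liver per array. RNA from whole liver was hybridised to 1-colour Agilent arrays, and levels are log2 signals relative to the 75th percentile of the same array, so that 0 is that percentile and 1 unit is a doubling. Arrays of one group correlated at 0.979 to 0.993, between 83.8% and 90.6% of probes were well above background, and none of the spots was saturated.

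The slides limit what the arrays can separate. All 4 LFD arrays were on 1 slide that held no other group, LFD MTX50 mice 1 to 4 were on another slide, and LFD MTX50 mouse 5 was on a slide that held no other liver of the study. In comparisons with LFD, slide and group cannot be told apart. HFD mice 3 and 4 shared a slide with HFD MTX50 mice 1 and 2, so the treatment on HFD could also be read within 1 slide. Probe sequences were not used here, and signals of close relatives within a subfamily may include each other's RNA. In whole liver, fewer cells of a type and less RNA per cell cannot be told apart.

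High fat feeding was compared with low fat feeding first, in untreated livers. Of the 53 genes, 8 passed at an adjusted p below 0.05 (limma, with Benjamini-Hochberg adjustment over all probes tested), 6 higher and 2 lower in HFD. Over all genes tested, 28.3% passed, 18% higher and 10.4% lower, so the share of the families that passed was below that of all genes. The levels of 13 of the 53 genes did not overlap between the groups, against 40.3% of all genes. The median difference of the 53 genes was -0.07, against 0.08 for all genes.

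The Cyp2b genes stood highest among the diet differences. Cyp2b9, a steroid hydroxylase that is mainly a female liver enzyme, was at -4.50, -4.60, -4.33 and -4.58 in LFD and at -3.11, -2.28, -0.58 and -2.09 in HFD. Every HFD liver was above every LFD liver, and the HFD livers were spread over more than 2 units. The log2 difference was 2.49 ± 0.66 (SE), 5.62-fold, with an adjusted p of 0.0141.

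Cyp2b10, the main target of CAR in mouse liver, was at -0.27, -0.22, -0.22 and -0.69 in LFD and at 1.39, 1.66, 2.90 and 1.61 in HFD. Again the groups did not overlap. The difference was 2.24 ± 0.73, 4.72-fold, adjusted p = 0.0322. Cyp2b13, a close relative of Cyp2b9, was at -2.35, -2.63, -2.38 and -2.45 in LFD and at -1.98, -1.76, -0.67 and -1.41 in HFD, a difference of 1.00 ± 0.30 with an adjusted p of 0.0248. HFD mouse 3 was the highest of the 4 HFD livers for all 3 genes. The other Cyp2b genes differed little, with 0.14 ± 0.10 for Cyp2b19, which is known from skin, and 0.06 ± 0.20 for Cyp2b23.

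**Figure D1:**
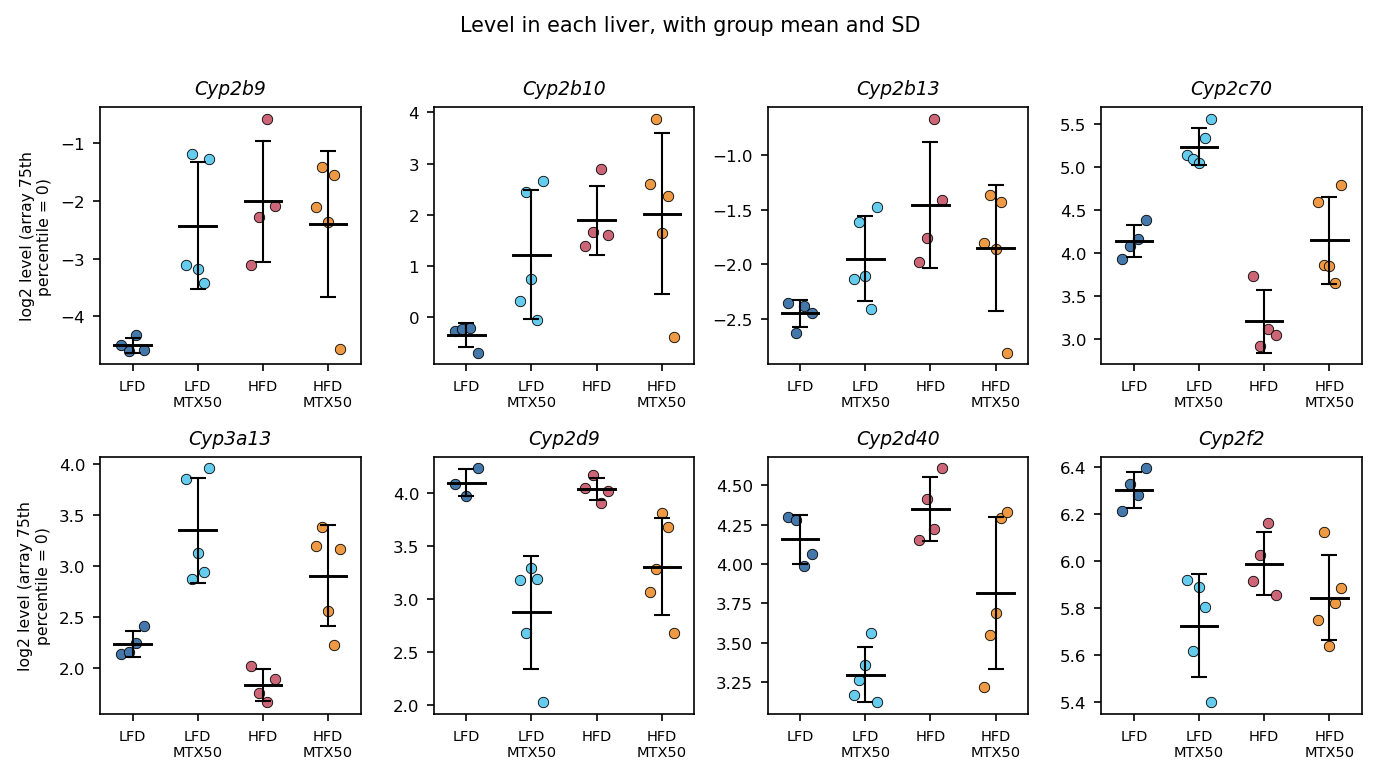
Log2 level of 8 genes in each liver, on the vertical axis relative to the array's 75th percentile, by group on the horizontal axis (4 untreated and 5 MTX50 livers per diet). Points are livers, long bars the mean and thin bars the SD; Cyp2b9, Cyp2b10 and Cyp2b13 had their lowest means and smallest SDs in LFD, and Cyp2c70 and Cyp3a13 were higher with MTX50 on both diets.

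Since these 3 Cyp2b genes moved together, the 200 bases before their starts are shown, read from RefSeq on the plus strand of chromosome 7 (build GRCm38.p6), where Cyp2b10 lies at chr7:25897458-25897657, Cyp2b13 at chr7:26061295-26061494 and Cyp2b9 at chr7:26173209-26173408. Capitals mark matches to the letters AGGTCA, the half-site that many nuclear receptors bind, or to TTATGNAA, bound by DBP, TEF and HLF, on either strand.
Cyp2b10: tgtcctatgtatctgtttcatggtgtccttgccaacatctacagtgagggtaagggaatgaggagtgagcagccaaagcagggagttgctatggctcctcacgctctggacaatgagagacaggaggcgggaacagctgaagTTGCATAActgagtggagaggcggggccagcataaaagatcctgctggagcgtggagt
Cyp2b13: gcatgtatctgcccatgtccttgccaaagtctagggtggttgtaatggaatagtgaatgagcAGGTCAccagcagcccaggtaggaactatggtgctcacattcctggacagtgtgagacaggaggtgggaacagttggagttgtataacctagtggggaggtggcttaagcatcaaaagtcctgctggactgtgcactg
Cyp2b9: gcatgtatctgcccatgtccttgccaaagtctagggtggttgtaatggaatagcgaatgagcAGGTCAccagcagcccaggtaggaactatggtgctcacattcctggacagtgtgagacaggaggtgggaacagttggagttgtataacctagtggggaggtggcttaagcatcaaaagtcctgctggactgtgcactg

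Cyp2b13 and Cyp2b9 matched at 199 of 200 bases (99.5%) and both held AGGTCA 138 to 133 bases before the start. Cyp2b10 aligned with either at 69.9% identity and held the TTATGNAA match on the minus strand, 58 to 51 bases before its start. Over all 10 Cyp2b pairs the identity ranged from 52.4% to 99.5%. Windows were found for 44 of the 53 genes, all but Cyp2c23, Cyp2c54, Cyp2d12, Cyp2d13, Cyp2d22, Cyp2d34, Cyp2d37-ps, Cyp2g1 and Cyp2u1. Within 250 bases before the start, on either strand, AGGTCA occurred in 15 of the 44 (34.1%) and in 14.0% of 32851 RefSeq windows, TTATGNAA in 4 (9.1%) and in 3.1%, TATAAA, the TATA box, in 21 (47.7%) and in 12.4%, and CCAAT, the CCAAT box, in 17 (38.6%) and in 33.8%. AGTTCA, a half-site of CAR and PXR, occurred in 3 (6.8%) and in 11.8% of all windows, TTCNNNGAA, the STAT site, in 1 (2.3%) and in 7.0%, and GTTAAT, an HNF1 half-site, in 3 (6.8%) and in 6.4%. Close relatives can share a match, as Cyp2b13 and Cyp2b9 do, so the 44 windows are not independent of each other. These matches describe the letters of the windows. Sites farther from the start were not searched, and binding was not measured.

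The other genes that were higher in HFD were Cyp2a22, Cyp2s1 and Cyp2c66. Cyp2s1, an enzyme of epithelia, was at -2.70, -2.90, -2.99 and -2.96 in LFD and at -2.64, -2.32, -1.81 and -1.97 in HFD, without overlap, a difference of 0.70 ± 0.19 (adjusted p = 0.0145). Cyp2a22 differed by 0.78 ± 0.25 (adjusted p = 0.0309), with LFD livers from -5.09 to -4.76 and HFD livers from -4.59 to -3.65. Cyp2c66 differed by 0.67 ± 0.24 at an adjusted p of 0.0496, and LFD mouse 1, at -0.37, lay among the HFD livers.

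Lower in HFD were Cyp2c70 and Cyp2c29. Cyp2c70 is the hydroxylase with which mice turn chenodeoxycholic acid into muricholic acid. It was at 3.94, 4.08, 4.16 and 4.38 in LFD and at 3.74, 2.92, 3.11 and 3.05 in HFD, so that the HFD livers all lay below. The difference was -0.94 ± 0.24, 1.91-fold lower, adjusted p = 0.0110. Cyp2c29, an epoxygenase of arachidonic acid that CAR and PXR induce, was at 5.40, 5.44, 5.25 and 5.49 in LFD and at 5.34, 4.57, 4.53 and 4.74 in HFD. HFD mouse 1 lay among the LFD livers, and the difference was -0.60 ± 0.22 (adjusted p = 0.0473).

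Leaving out 1 mouse changed the diet count of 8 by more than 1.5 times in several cases. It was 5, 4, 4 and 3 without LFD mice 1 to 4, and 5, 1 and 2 without HFD mice 2, 3 and 4. With slide as a random block the count was 0, and the adjusted p was 0.102 for Cyp2b9, 0.174 for Cyp2b10, 0.132 for Cyp2b13 and 0.0885 for Cyp2c70, at differences of 2.40, 2.01, 0.96 and -0.96. Cyp2c70 was the gene of these 8 that passed without any single mouse.

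Methotrexate was then compared within each diet. On LFD, 14 of the 53 genes passed, 7 higher and 7 lower in LFD MTX50 than in LFD. Over all genes 28.1% passed, 17.6% higher and 10.5% lower, so that the share of the families that passed was near that of all genes. Levels did not overlap for 17 of the 53 genes, against 29.1% of all genes. The median difference was -0.04, against 0.10 for all genes. On HFD, 2 of the 53 genes passed, both higher in HFD MTX50, where 11.0% of all genes passed, 4.83% higher and 6.13% lower. Levels did not overlap for 3 genes, Cyp3a13, Cyp2d9 and Cyp2c55, against 11.4% of all genes. At an unadjusted p below 0.05 the counts were 18 on LFD and 15 on HFD, where 8135 and 6039 of all 19597 genes were, so that the share of the families was below that of all genes in both. HFD vs LFD and LFD MTX50 vs LFD share the LFD livers, and HFD vs LFD and HFD MTX50 vs HFD share the HFD livers.

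**Figure D2:**
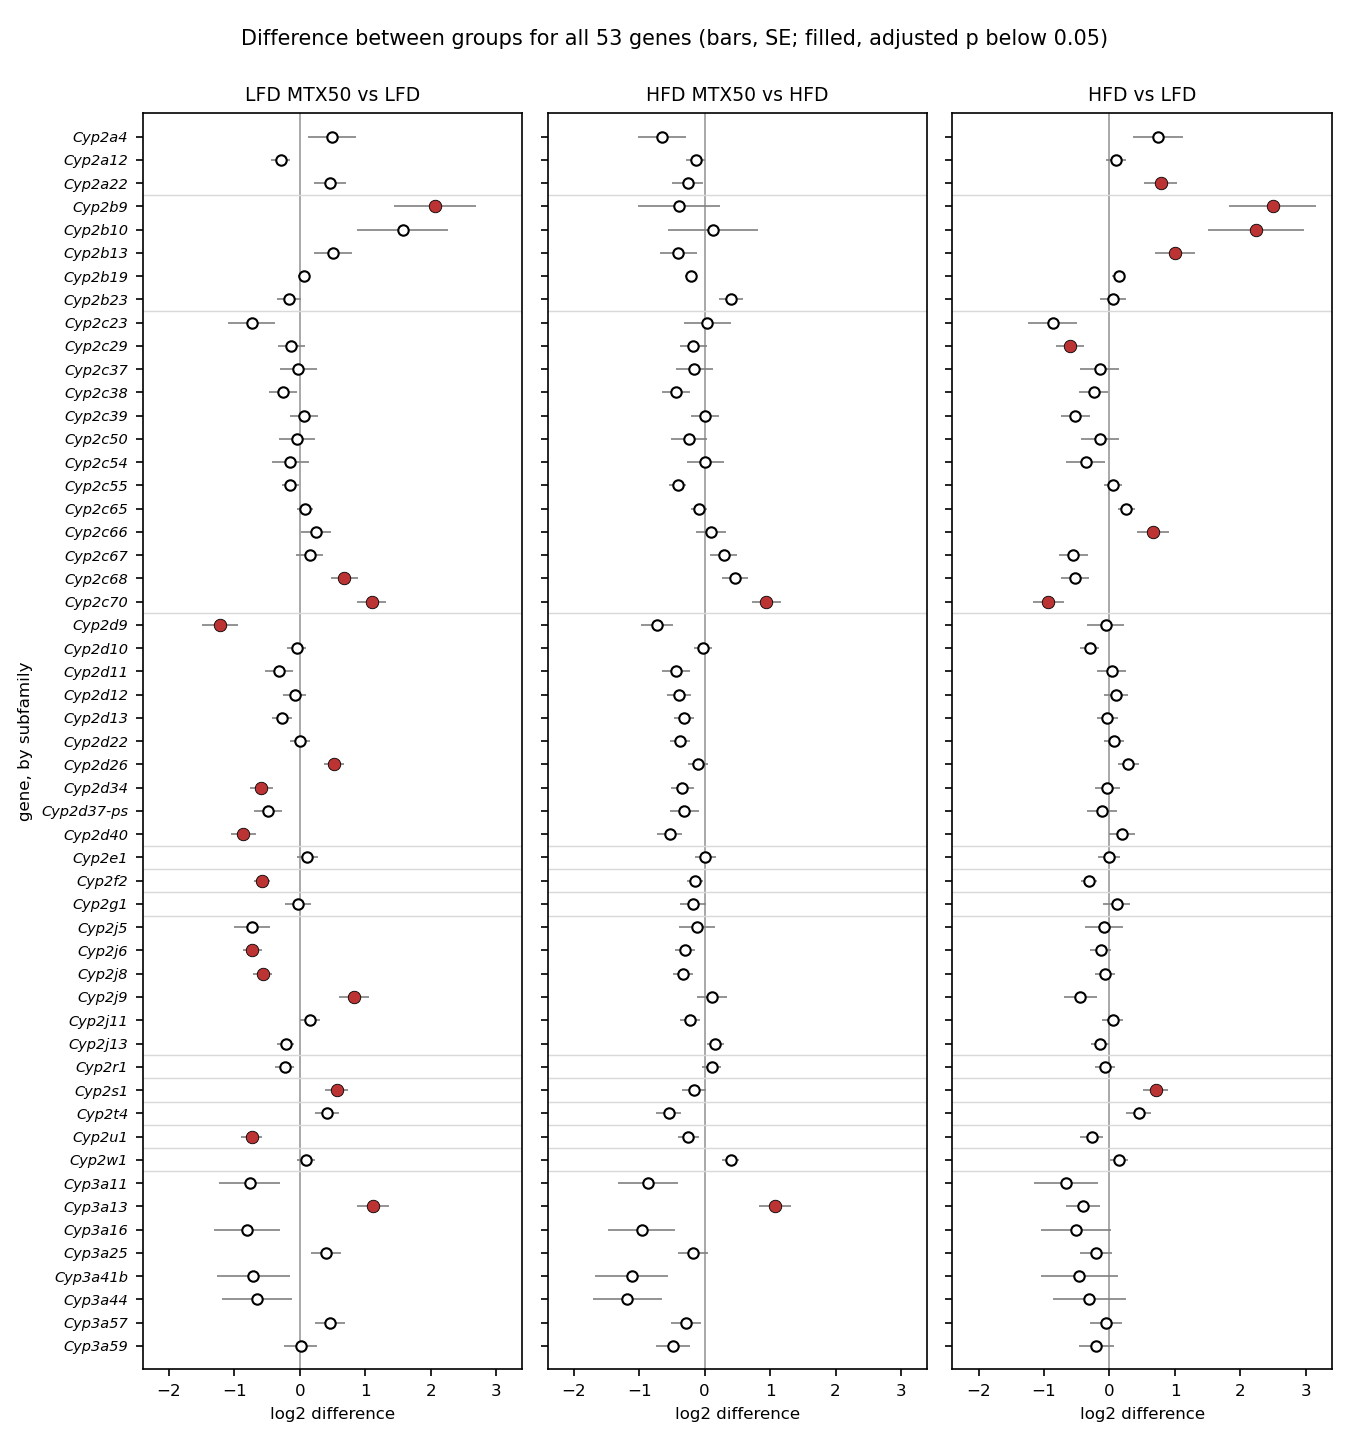
Log2 difference of each of the 53 genes, on the horizontal axis, in LFD MTX50 vs LFD, HFD MTX50 vs HFD and HFD vs LFD, with genes in rows by subfamily. Bars are SE and filled points passed at an adjusted p below 0.05: 14, 2 and 8 genes in the 3 panels.

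Cyp2c70 and Cyp3a13 passed on both diets, both higher with MTX50. Cyp2c70 was at 5.14, 5.09, 5.05, 5.34 and 5.57 in LFD MTX50, each above the highest LFD liver at 4.38. The difference was 1.10 ± 0.22, 2.14-fold, with an adjusted p of 0.00408. In HFD MTX50 it was at 4.59, 3.86, 3.85, 3.65 and 4.79, with 1 liver below the highest HFD liver at 3.74. There the difference was 0.94 ± 0.22, 1.92-fold, adjusted p = 0.0189. The mean in HFD MTX50, 4.15 ± 0.51 (SD, n = 5), was close to that in LFD, 4.14 ± 0.19 (SD, n = 4), a comparison that was not tested.

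Cyp3a13 is a Cyp3a enzyme of liver and intestine. It was at 2.14, 2.15, 2.24 and 2.41 in LFD and at 3.85, 2.88, 3.13, 2.95 and 3.96 in LFD MTX50, without overlap. It was at 2.02, 1.76, 1.66 and 1.89 in HFD and at 3.20, 3.39, 2.56, 2.22 and 3.17 in HFD MTX50, again without overlap. The differences were 1.12 ± 0.25 on LFD (2.17-fold, adjusted p = 0.00594) and 1.08 ± 0.25 on HFD (2.11-fold, adjusted p = 0.0174). A second, dimmer Cyp3a13 probe gave 0.37 ± 0.27 and 0.74 ± 0.27, which did not pass (adjusted p = 0.299 and 0.0761).

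The treatment effects on the 2 diets differed by -0.16 ± 0.32 for Cyp2c70 and by -0.04 ± 0.35 for Cyp3a13, and neither difference passed (adjusted p = 0.734 and 0.940). Within the slide that held both HFD groups, 2 mice each, the treatment difference was 1.52 ± 0.35 for Cyp3a13 (adjusted p = 0.0217) and 1.15 ± 0.35 for Cyp2c70 (adjusted p = 0.0618). Outside it the differences were 0.76 for Cyp3a13 and 0.77 for Cyp2c70, and neither passed (adjusted p = 0.242 and 0.240). With slide as a random block both passed on HFD (adjusted p = 0.0149 and 0.0248) and neither on LFD (0.0666 and 0.0677). The HFD count of 2 was 0 without HFD mouse 3, 0 without HFD mouse 4 and 1 without HFD mouse 2, while it was 5 without HFD mouse 1 or LFD MTX50 mouse 5, 6 without HFD MTX50 mouse 1, and 4 without HFD MTX50 mouse 2 or 3. It was also 0 when only the 2 HFD groups entered the fit or slide was a fixed block, where none of all genes passed.

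Because Cyp2c70 and Cyp3a13 were higher with MTX50 on both diets, the 200 bases before their starts are shown as well, from RefSeq, minus strand, build GRCm38.p6, Cyp2c70 at chr19:40187287-40187486 and Cyp3a13 at chr5:137921620-137921819. Capitals mark, in Cyp2c70, AGGTCA and the TATA box on the minus strand of the window and, in Cyp3a13, a CCAAT box on the minus strand of the window.
Cyp2c70: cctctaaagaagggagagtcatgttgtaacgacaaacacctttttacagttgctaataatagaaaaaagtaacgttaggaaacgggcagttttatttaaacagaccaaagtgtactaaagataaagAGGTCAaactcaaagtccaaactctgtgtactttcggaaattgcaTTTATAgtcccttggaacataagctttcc
Cyp3a13: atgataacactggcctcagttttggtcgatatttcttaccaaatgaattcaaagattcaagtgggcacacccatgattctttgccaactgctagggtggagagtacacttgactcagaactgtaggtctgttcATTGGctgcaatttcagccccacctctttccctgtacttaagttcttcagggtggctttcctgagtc

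In Cyp2c70, AGGTCA lay 74 to 69 bases and the TATA box 29 to 24 bases before the start, and in Cyp3a13 the CCAAT box lay 67 to 63 bases before it. Neither window held TTCNNNGAA or AGTTCA. Among the 55 Cyp2c pairs with windows the identity of the 200 bases had a median of 51.5%, and among the 28 Cyp3a pairs one of 54.3%.

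The other genes higher in LFD MTX50 than in LFD were Cyp2b9, Cyp2j9, Cyp2c68, Cyp2s1 and Cyp2d26. Cyp2b9 was at -3.11, -1.19, -3.17, -3.42 and -1.28 in LFD MTX50, all above the LFD livers, with mice 2 and 5 well above the other 3. Its difference was 2.07 ± 0.63, 4.20-fold, adjusted p = 0.0239. Cyp2b10 had the same pair of high livers, at 0.32, 2.45, 0.73, -0.06 and 2.67, and its difference of 1.57 ± 0.69 did not pass (adjusted p = 0.0933). Without LFD MTX50 mouse 5, Cyp2b9 was at 1.78 with an adjusted p of 0.0514.

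Cyp2j9, an arachidonic acid metabolising enzyme known from brain, was at -0.58, -0.98, -1.27 and -0.75 in LFD and at -0.31, -0.34, 0.20, 0.62 and -0.48 in LFD MTX50, without overlap, a difference of 0.83 ± 0.24 (adjusted p = 0.0177). Cyp2c68 differed by 0.68 ± 0.20, Cyp2s1 by 0.56 ± 0.18 and Cyp2d26 by 0.52 ± 0.15, with adjusted p of 0.0223, 0.0285 and 0.0188 and no overlap of the groups. Cyp2d26 was the Cyp2d gene that passed as higher, while 3 others passed as lower.

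Of the 10 Cyp2d genes, relatives of the human drug-metabolising enzyme CYP2D6, Cyp2d9, Cyp2d40 and Cyp2d34 were lower in LFD MTX50. Cyp2d13 and Cyp2d37-ps, also among the 10, were read on transcripts listed as non-coding. Cyp2d9, the testosterone 16-alpha-hydroxylase typical of male liver, was at 4.08, 3.97 and 4.23 in the 3 LFD livers with a value and at 3.18, 2.68, 3.29, 3.19 and 2.03 in LFD MTX50. LFD mouse 1 had no value because its spot was an outlier on the array, and the fit used the other 17 arrays. All treated livers lay below all controls, and the difference was -1.22 ± 0.27, 2.33-fold lower, adjusted p = 0.00642. On HFD it was at 4.05, 4.17, 3.91 and 4.02 without and at 3.06, 3.28, 3.81, 3.68 and 2.69 with MTX50. The groups again did not overlap, but the difference of -0.73 ± 0.25 did not pass (adjusted p = 0.0657).

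Cyp2d40 was at 4.30, 4.28, 3.99 and 4.07 in LFD and at 3.17, 3.26, 3.36, 3.56 and 3.13 in LFD MTX50, without overlap, a difference of -0.86 ± 0.19 (1.82-fold lower, adjusted p = 0.00624). In HFD it was at 4.16, 4.41, 4.22 and 4.61. In HFD MTX50 mice 1 to 3 were at 3.22, 3.55 and 3.69, and mice 4 and 5, at 4.29 and 4.33, lay within the HFD range. The HFD difference was -0.53 ± 0.19 (adjusted p = 0.0774). It was -1.03 ± 0.22 within the shared slide (adjusted p = 0.0170), -0.18 outside it, and -0.69 with slide as a random block (adjusted p = 0.0409). Cyp2d34 differed by -0.59 ± 0.18 on LFD (adjusted p = 0.0227), and a second, dimmer probe of it gave -1.29 on LFD and -0.93 on HFD, which passed on both diets (adjusted p = 0.00321 and 0.0284). All 10 Cyp2d genes had a difference below 0 on HFD, from -0.73 to -0.03, as did 10682 of all 19597 genes, and none of them passed. Within the shared slide Cyp2d37-ps also passed (-0.83 ± 0.20, adjusted p = 0.0303), and outside it the difference was 0.02.

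The remaining genes that were lower in LFD MTX50 were Cyp2f2, Cyp2j6, Cyp2j8 and Cyp2u1. Cyp2f2, a naphthalene-oxidising enzyme of lung and periportal liver, was at 6.21, 6.33, 6.28 and 6.39 in LFD and at 5.92, 5.61, 5.89, 5.80 and 5.40 in LFD MTX50. The groups did not overlap and the difference was -0.58 ± 0.12 (1.49-fold lower, adjusted p = 0.00436). On HFD it was -0.15 ± 0.12 and did not pass (adjusted p = 0.416). The difference between the diets in the Cyp2f2 effect, 0.43 ± 0.17, did not pass either (adjusted p = 0.0634).

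Cyp2j6 and Cyp2j8 belong to the Cyp2j subfamily, which includes epoxygenases of arachidonic acid. Cyp2j6 was at -0.72, -0.36, -0.38 and -0.39 in LFD and at -1.23, -0.85, -1.32, -1.10 and -1.42 in LFD MTX50, a difference of -0.72 ± 0.15 (adjusted p = 0.00469), and its second probe gave -0.53 ± 0.12. Cyp2j8 differed by -0.57 ± 0.15 (adjusted p = 0.0128). With a mean over its 2 probes it did not pass, the second probe being far dimmer and at 0.33 ± 0.55. The probes of Cyp2j13 disagreed with treatment on HFD, where none passed. The one read here was at 0.16 ± 0.13, and dimmer ones were at -0.40 ± 0.13 and -0.48 ± 0.16. For the difference between the effects on the diets, the dimmest probe passed at -0.65 ± 0.23 (adjusted p = 0.0479). There the probe read was at 0.38 ± 0.18 and did not pass (adjusted p = 0.128). Cyp2u1, a fatty acid omega-hydroxylase, was at -2.94, -2.89, -3.07 and -2.78 in LFD and at -3.59, -3.79, -3.37, -3.81 and -3.71 in LFD MTX50, a difference of -0.73 ± 0.16 (adjusted p = 0.00586) without overlap. Under another background correction its difference turned to 0.56.

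On LFD none of these 14 calls held with slide as a random block, where 340 of all genes passed. The differences kept their sign, and the adjusted p was 0.132 for Cyp2b9, 0.0612 for Cyp2d9, 0.0715 for Cyp2d40 and 0.0590 for Cyp2f2.

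**Figure D3:**
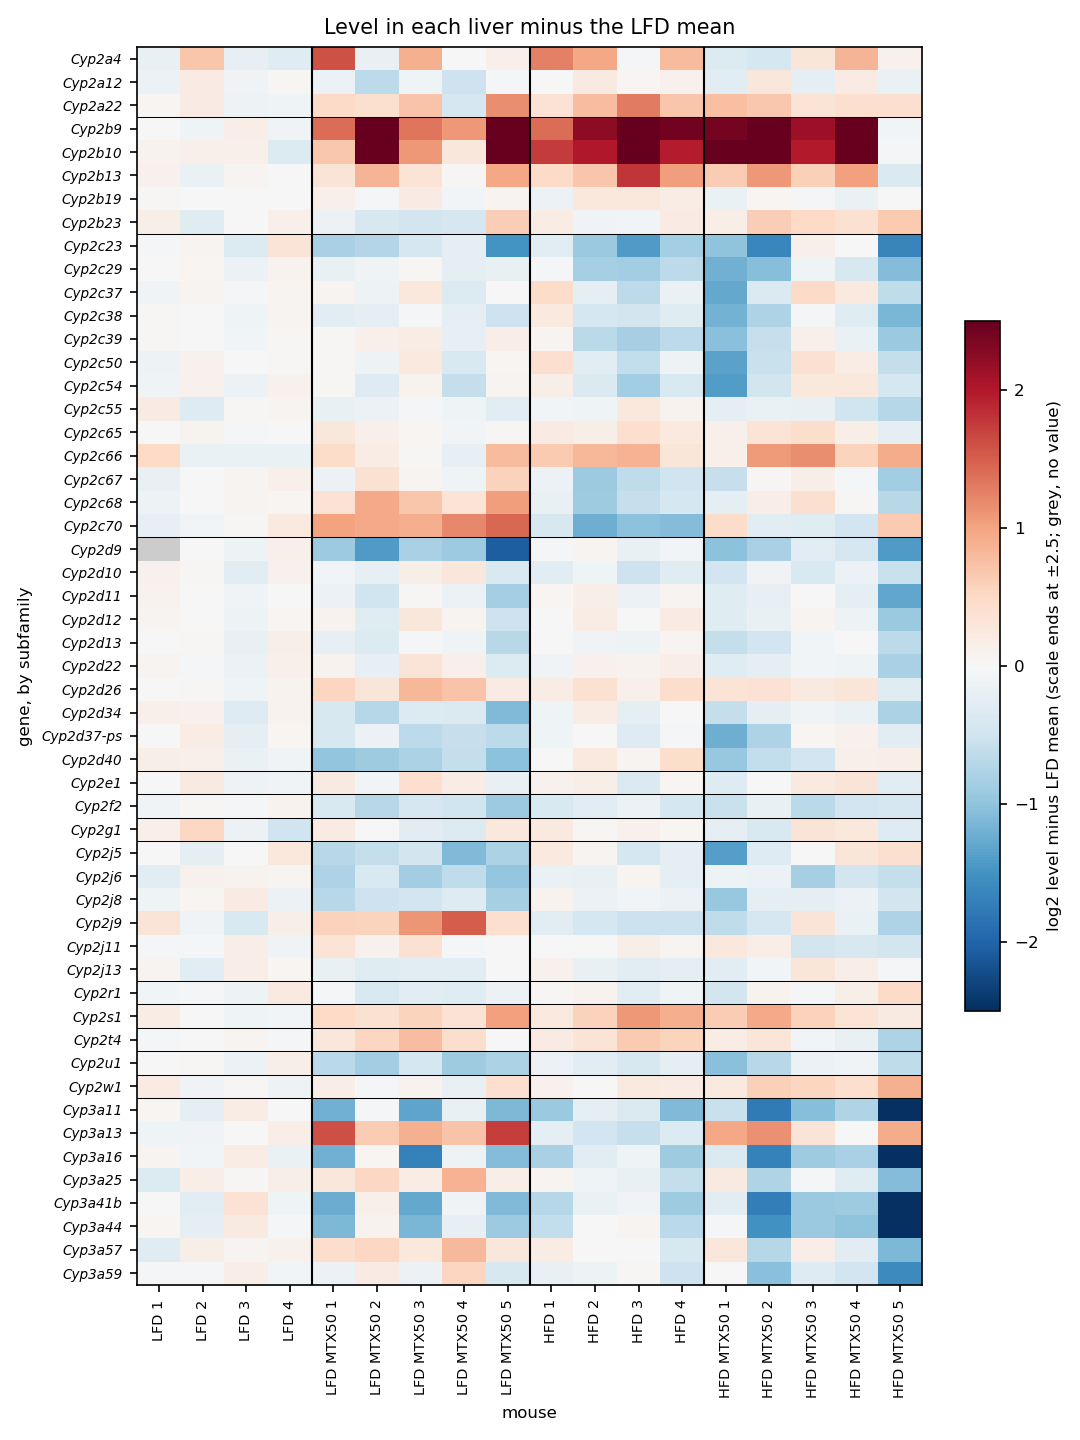
Level of the 53 genes (rows, by subfamily) in each of the 18 livers (columns, by group) minus the mean of the LFD livers, in log2 units on a colour scale that ends at 2.5 units above and below 0, with grey where there is no value. Cyp2b9 and Cyp2b10 were above the LFD mean in nearly all other livers, Cyp2d9 was below it in all MTX50 livers, and HFD MTX50 mouse 5 was lowest for Cyp3a11, Cyp3a16, Cyp3a41b and Cyp3a44.

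Several Cyp3a genes other than Cyp3a13 varied widely between treated mice, with SDs in HFD MTX50 of up to 1.49, for Cyp3a41b, against 1.57 for Cyp2b10. Cyp3a11, the mouse counterpart of human CYP3A4 and a target of PXR, was at 5.58, 5.30, 5.70 and 5.51 in LFD and at 4.33, 5.50, 4.21, 5.34 and 4.41 in LFD MTX50. Mice 1, 3 and 5 were below every control and mice 2 and 4 within the control range, and the difference of -0.77 ± 0.46 did not pass (adjusted p = 0.212). In HFD it was at 4.60, 5.28, 5.16 and 4.42, all below the LFD livers, a difference of -0.66 ± 0.49 (adjusted p = 0.307). In HFD MTX50 it was at 4.97, 3.76, 4.46, 4.77 and 2.02, and the difference from HFD was -0.87 ± 0.46 (adjusted p = 0.208).

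Cyp3a16, Cyp3a41b and Cyp3a44 had the same pattern across the livers, with LFD MTX50 mice 1, 3 and 5 low and HFD MTX50 mouse 5 lowest, at -0.22, -2.08 and -3.17 where the LFD means were 3.41, 2.01 and 0.75. These are close relatives of Cyp3a11, so that shared signal was possible and was not tested. Cyp3a25, Cyp3a57 and Cyp3a59 were also lowest in HFD MTX50 mouse 5, at 2.52, 2.38 and 1.61. Without that mouse the HFD differences were -0.37 for Cyp3a11, -0.42 for Cyp3a16, -0.49 for Cyp3a41b and -0.57 for Cyp3a44, against -0.87, -0.96, -1.12 and -1.18 with it. The summed level of 24 acute phase genes in mouse 5 was 11.25, above 9.57 to 10.19 in the other HFD MTX50 livers, and that of 7 lymphocyte and neutrophil genes was 6.06, above 4.36 to 5.05. Their part in its low Cyp3a levels was not tested.

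**Figure D4:**
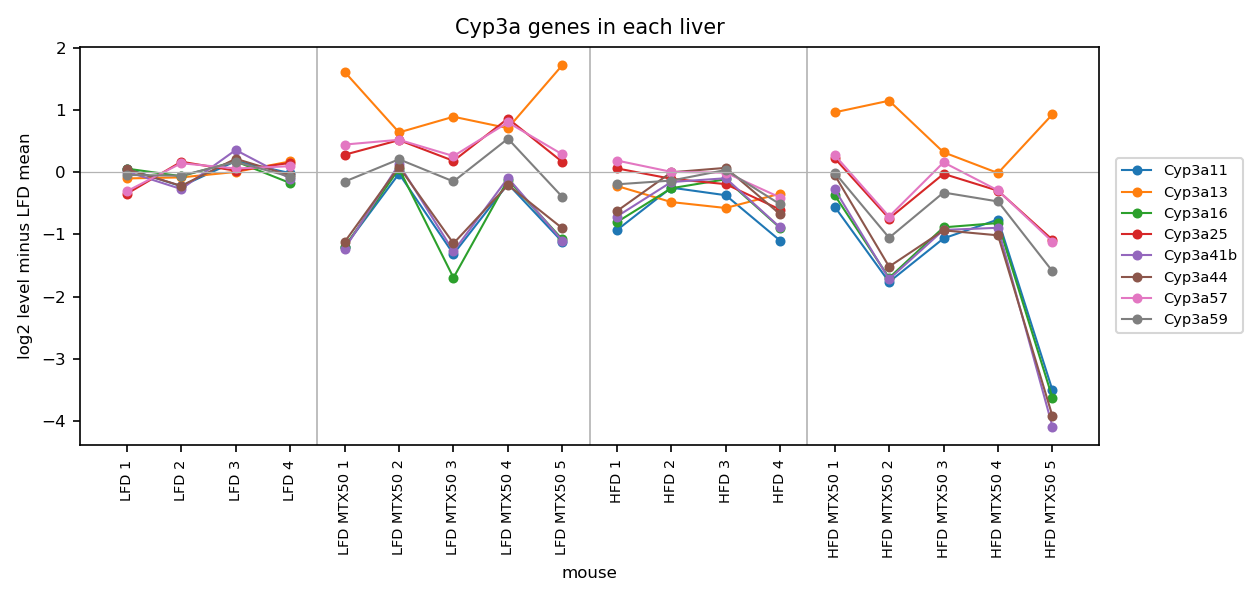
Level of the 8 Cyp3a genes in each of the 18 livers (horizontal axis, by group) minus the LFD mean, in log2 units on the vertical axis, with lines joining the points of a gene within a group. Cyp3a11, Cyp3a16, Cyp3a41b and Cyp3a44 ran together, low in LFD MTX50 mice 1, 3 and 5 and lowest in HFD MTX50 mouse 5, while Cyp3a13 ran above 0 in the LFD MTX50 livers.

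HFD MTX50 mouse 5 also had Cyp2b9, Cyp2b10 and Cyp2b13 at -4.56, -0.39 and -2.81, in or below the LFD range, where the other 4 HFD MTX50 livers were at -2.37 to -1.42, 1.64 to 3.88 and -1.86 to -1.36. The treatment differences on HFD were -0.39 ± 0.63, 0.13 ± 0.69 and -0.40 ± 0.29, and without that mouse 0.15, 0.73 and -0.16. None passed in either case.

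The treatment effect was then compared between the diets. The difference between the effects, that on HFD minus that on LFD, passed for 4 of the 53 genes, all below 0. Over all genes 26.8% passed, 8.66% above and 18.1% below 0. For Cyp2b9 the difference was -2.46 ± 0.89 (adjusted p = 0.0491), with 2.07 on LFD and -0.39 on HFD. It passed in 2 of 10 other settings and in 5 of the 18 fits that left out 1 mouse. Cyp2t4 was at -1.31, -1.27, -1.20 and -1.30 in LFD and at -0.98, -0.73, -0.49, -0.82 and -1.26 in LFD MTX50, against -1.06, -0.93, -0.61 and -0.72 in HFD and -1.08, -0.96, -1.34, -1.46 and -2.04 in HFD MTX50. The Cyp2t4 effects were 0.41 and -0.55, neither of which passed alone, and they differed by -0.96 ± 0.26 (adjusted p = 0.0163).

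Cyp2s1 (-0.73 ± 0.25, adjusted p = 0.0431) and Cyp2d26 (-0.62 ± 0.21, adjusted p = 0.0393) were higher with MTX50 on LFD and had effects of -0.16 and -0.10 on HFD. The count of 4 was 2 without LFD mouse 1 or 4, LFD MTX50 mouse 1 or HFD mouse 2, and 1 without LFD mouse 2 or 3, LFD MTX50 mouse 3, HFD mouse 3 or 4, or HFD MTX50 mouse 5. It was 7 without HFD MTX50 mouse 1 and 0 with slide as a random block, and Cyp2t4 was the gene that passed without any single mouse.

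Some well-known enzymes did not pass in any comparison. Cyp2e1, which oxidises ethanol and paracetamol, had means (± SD) of 7.36 ± 0.16 without and 7.48 ± 0.24 with MTX50 on LFD, and of 7.35 ± 0.24 without and 7.36 ± 0.29 with MTX50 on HFD, and differences of 0.12 ± 0.16, 0.01 ± 0.16 and -0.01 ± 0.17 in the 3 comparisons. Cyp2r1, a vitamin D 25-hydroxylase, and Cyp2a12, a bile acid and steroid hydroxylase, differed by at most -0.23 ± 0.15 and -0.29 ± 0.15, both with treatment on LFD. A second, dimmer Cyp2r1 probe gave -0.44 ± 0.26, -0.35 ± 0.26 and -0.51 ± 0.28 in the 3 comparisons and did not pass either. Cyp2g1, best known from the olfactory mucosa, and Cyp2w1, known from colon, did not pass in any comparison either. These errors do not show that the levels were equal.

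The Cyp2c genes Cyp2c29, Cyp2c37, Cyp2c38, Cyp2c39, Cyp2c50 and Cyp2c54 include arachidonic acid epoxygenases and had their extremes in the same HFD livers. Cyp2c54 was at 6.45, 5.94, 5.43 and 5.92 in HFD and at 4.91, 5.84, 6.56, 6.57 and 5.86 in HFD MTX50, a difference of 0.01 ± 0.28. HFD mouse 1 was the highest HFD liver and HFD MTX50 mouse 1 the lowest of all 18 livers for each of these 6 genes. The array of HFD MTX50 mouse 1 also had the highest 75th percentile of the 18 (2263) and the lowest correlation with its group (0.979). Their part in these levels was not tested. In LFD the range was narrow, 6.16 to 6.42 for Cyp2c54. Cyp2c23, listed also as Cyp2c44 and an epoxygenase as well, had differences of -0.73 ± 0.36 on treatment in LFD and -0.87 ± 0.38 on HFD feeding, which did not pass (adjusted p = 0.128 and 0.0916). A second, much dimmer probe of Cyp2c38 passed on LFD at 1.06 ± 0.28, where the brighter one was at -0.25 ± 0.21 and did not. The probes of Cyp2c67 were about equally bright (mean levels of 4.24) and disagreed. The one read here did not pass in any comparison, at 0.15 ± 0.21 on LFD and 0.29 ± 0.21 on HFD with treatment and -0.55 ± 0.22 in HFD vs LFD. The other passed in all 3, at 0.77 ± 0.17 on LFD (adjusted p = 0.00641), 0.58 ± 0.17 on HFD (adjusted p = 0.0409) and -0.64 ± 0.18 in HFD vs LFD (adjusted p = 0.0185).

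The genes were also grouped by sex bias, inducer and liver zone, with counts to be read against the 28.1%, 11.0% and 28.3% of all genes that passed in LFD MTX50 vs LFD, HFD MTX50 vs HFD and HFD vs LFD. Of the 6 measured genes typical of female liver, 1 passed on LFD MTX50 vs LFD, Cyp2b9, and none on HFD MTX50 vs HFD. The medians were -0.08 and -0.81. Among the 6 are Cyp3a16, Cyp3a41b and Cyp3a44, with HFD differences of -0.96, -1.12 and -1.18. These ran together and were lowest in HFD MTX50 mouse 5. In HFD vs LFD 2 of the 6 passed, Cyp2b9 and Cyp2b13, both higher, with a median of 0.22. Of 9 genes induced through CAR or PXR, 1 passed in each treatment comparison, Cyp3a13, and 2 in HFD vs LFD, Cyp2b10 and Cyp2c29, in opposite directions. Of 7 pericentral genes none passed with treatment, with medians of -0.04 and -0.17, against 0.10 and -0.04 for all genes. In limma none of these 7 was at an unadjusted p below 0.05 either, and their lowest was 0.0782, for Cyp3a11 on HFD. Of the 11 measured genes listed as arachidonic acid epoxygenases, a list without Cyp2j8, 2 passed on LFD, Cyp2j9 higher and Cyp2j6 lower.

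The partners and regulators of these enzymes were read from lists chosen with earlier results of these data known, and their counts stand beside 28.1% of all genes on LFD and 11.0% on HFD. Of 18 genes of electron transfer and haem turnover, 6 passed in LFD MTX50 vs LFD, 1 higher and 5 lower. Por, the P450 reductase, was higher by 1.18 (adjusted p = 0.0402), and Cyb5b and Cyb5r3, which pass electrons through cytochrome b5, were lower by 1.15 and 0.93 units, with Uros, of haem synthesis, at -0.79. In HFD MTX50 vs HFD 2 passed, both lower, Alad at -0.68 and Cyb5r3 at -0.64. The median differences were -0.04 and -0.19.

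Of 26 transcriptional regulators, 10 passed on LFD, 7 higher and 3 lower, with Tef at 1.49, Gadd45b at 1.16, Cebpb at 1.04 and Foxa1 at -0.93. On HFD 3 passed, all higher, Ppargc1a at 0.76, Hnf4a at 0.51 and Nr5a2 at 0.32. The receptors themselves, named here outside the naming rule, were at 0.53 for PXR (adjusted p = 0.0129) and 0.95 for CAR (adjusted p = 0.0554) on LFD, and at 0.11 and -0.16 on HFD. Of 26 genes of the growth hormone axis, 13 passed on LFD, 7 higher and 6 lower, with Cux2, a female-specific repressor, at 6.15 and the male-typical Elovl3, Hsd3b5 and Cyp4a12a at -6.50, -4.64 and -4.13. On HFD 3 passed, 1 higher and 2 lower, among them Cyp4a12a at -1.74 and Socs2 at 0.94. Of 28 other P450 genes, 10 passed on LFD and 4 on HFD, the latter all lower.

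Marker genes of other cells and states were read as well. Their counts are set against 28.1%, 11.0% and 28.3% of all genes in LFD MTX50 vs LFD, HFD MTX50 vs HFD and HFD vs LFD. Summed levels of stellate cell, endothelial cell, and lymphocyte and neutrophil markers overlapped between treated and untreated livers on both diets. Lymphocyte and neutrophil markers were at 4.40 to 4.52 in LFD and 4.69 to 4.81 in HFD, without overlap. Acute phase genes passed for 10 of 24 on LFD and 11 of 24 on HFD, all higher with MTX50, and their summed level went from 9.33 to 9.50 without and 10.05 to 10.32 with MTX50 on LFD, and from 9.13 to 9.40 without and 9.57 to 11.25 with MTX50 on HFD. Adipose markers were higher in HFD for 3 of 4 genes, with summed levels of -1.94 to -1.30 in LFD and 2.02 to 2.71 in HFD, where the difference of Cfd was 5.99. Erythroid markers were lower for 2 of 3 genes in LFD MTX50, 0.02 to 0.65 against 3.98 to 4.50 in LFD. In HFD they were at 3.37 to 4.49, and in HFD MTX50 at 0.43, 0.88 and 1.32 in mice 1 to 3 and at 4.43 and 5.77 in mice 4 and 5, the mice whose Cyp2d40 lay within the HFD range. Pericentral genes outside the families passed for 5 of 21 on LFD, 1 higher and 4 lower, with summed levels of 7.97 to 8.05 in LFD and 7.47 to 7.66 in LFD MTX50, and for 1 of 21 on HFD, lower. Periportal genes passed for 3 of 18 on LFD, 2 higher and 1 lower, and for 3 of 18 on HFD, 1 higher and 2 lower. Kidney and intestine markers had summed levels of 3.58 to 4.17 in LFD, 2.23 to 3.15 in LFD MTX50, 4.41 to 4.53 in HFD and 2.71 to 4.36 in HFD MTX50, without overlap in any of the 3 comparisons. Of these 5 genes 2 passed in HFD vs LFD, both higher, 2 in LFD MTX50 vs LFD, 1 in each direction, and 1 in HFD MTX50 vs HFD, lower. The 10 hepatocyte markers, Alb among them, had summed levels of 10.35 to 10.63 in LFD and 10.61 to 10.78 in LFD MTX50. They were at 10.20 to 10.40 in HFD and 10.15 to 10.73 in HFD MTX50. Of them 3 passed in HFD vs LFD, all lower, and 2 and 1 with MTX50 on LFD and HFD, all higher. Kupffer cell and macrophage markers were at 5.58 to 6.06 in LFD and 5.22 to 5.54 in LFD MTX50. In HFD they were at 5.17 to 5.93 and in HFD MTX50 at 5.87 to 6.38. Of these 10 genes 2 passed in LFD MTX50 vs LFD, both lower, none in HFD MTX50 vs HFD, and 1 in HFD vs LFD, lower. Their median differences with MTX50 were above 0, unlike the lower sum on LFD. These medians were 0.29 on LFD and 0.54 on HFD, against 0.10 and -0.04 for all genes. Cholangiocyte markers were at 0.76 to 1.11 in LFD and 1.25 to 1.34 in LFD MTX50, where 2 of 7 genes passed, both higher. The part of these markers in the P450 differences was not tested.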

How the data were processed

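Total RNA from the liver of 18 mice, 1 mouse per array, was labelled with Cy3 and hybridised to 1-colour Agilent arrays by the authors, and the deposited scanner files hold intensity values from Agilent Feature Extraction 10.7.3.1 (processed signal, background subtracted). The deposited value table of the series holds background-subtracted signals. These were scaled, turned to log2 and used as an alternative only. Of 43020 spots that were not controls, spots marked as outliers on an array (124 to 294 per array) were left out, spots of one probe were averaged, and the log2 processed signal was set relative to the 75th percentile of its array (1203 to 2263 before the log). The number of arrays limits the precision.

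Probes well above background on at least 4 of 18 arrays were kept (35735 of 39429). Of all probes, 71.1% got a gene name, by matching the transcript listed for the probe to RefSeq. A gene was read on its brightest kept probe, and 14 of the 53 genes had more than 1. Differences were fitted in 1 model over the 4 groups with limma 3.58.1 in R 4.3.3 (lmFit, contrasts.fit and eBayes, 2-sided), and p-values were adjusted by Benjamini-Hochberg across every kept probe, and the fit was tested on simulated data. Figures and tables used Python 3.11.15. Promoter windows came from RefSeq (GRCm38.p6).

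The members and gene lists were chosen with earlier results of these data known. Named genes are members that passed, by size of difference, the brightest gene of each subfamily, genes with disagreeing probes, and up to 4 passing genes of each list, of which 1 is not reported here. A summed level is the log2 of the summed linear signals of a list. Alternatives covered background, normalization, filters, variance model, samples in the fit, slide, replicate number, probe choice, call rule and each mouse left out. Same-numbered mice did not deviate together (correlations from -0.31 to 0.25), so numbers were not taken as pairs.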

Additional observations from a re-analysis of the deposited data

Results flagged for a closer look

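In 10 of 212 groups of livers (4.72%) 1 liver lay apart from the others of its group, and chance alone marks about 1 in 20 groups. In LFD these were Cyp2a4 in mouse 2 at 4.52, Cyp2b10 in mouse 4 at -0.69, Cyp2c39 in mouse 3 at 4.75, Cyp2c66 in mouse 1 at -0.37, Cyp2d34 in mouse 3 at 5.27, Cyp2j6 in mouse 1 at -0.72 and Cyp3a59 in mouse 3 at 3.37. In LFD MTX50 it was Cyp2b23 in mouse 5 at 1.06. In HFD MTX50, Cyp2d11 at 4.46 and Cyp2d26 at 5.46 lay apart in mouse 5.

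The effect of MTX50 differed between the diets at an adjusted p below 0.05, by the tested difference of the effects (HFD minus LFD, log2), for Cyp2b9 (-2.46), Cyp2d26 (-0.62), Cyp2s1 (-0.73) and Cyp2t4 (-0.96). Of 10 other settings, Cyp2b9 passed in 2, Cyp2d26 in 7, Cyp2s1 in 5 and Cyp2t4 in 8. Of 18 fits that left out 1 mouse, they passed in 5, 7, 7 and 18.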

How the results depend on the processing

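The counts of genes that passed were 14 in LFD MTX50 vs LFD, 2 in HFD MTX50 vs HFD, 8 in HFD vs LFD and 4 for the difference between the effects. With normexp background correction they were 3, 0, 0 and 0. That setting moved the median of all genes to 0.47, 0.39 and 0.38 in the first 3, and turned Cyp2u1 in LFD MTX50 vs LFD from -0.73 to 0.56. With slide as a random block the counts were 0, 3, 0 and 0. In HFD MTX50 vs HFD the count was 5 with quantile normalization, 4 with the series value table, and 0 with slide as a fixed block or only the groups compared. In HFD vs LFD it was 5 with quantile normalization and 20 with only the groups compared. For the difference between the effects it was 2 with centring on the median. With a change of at least 2-fold required, the counts were 4, 1, 2 and 1, also at an unadjusted p up to 0.015. With the replicate block the counts were 14, 2, 8 and 2. Leaving out each mouse gave 10 to 17, 0 to 6, 1 to 10 and 1 to 7. Of 695 recomputed differences of single genes, 532 kept direction and call, 162 kept direction and lost the call, and 1 reversed. The cause was not tested. The number of mice and the slides, which cannot be told apart from group in comparisons with LFD, limit all counts.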
